A study of Mus musculus with 4 samples.

Results

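The growth factor receptor genes and lineage factor genes of myeloid cells were examined in the blood of aging mice given naringenin (Nar), a flavonoid. The set was fixed by name as 10 genes, 4 encoding receptor chains (Csf3r, Csf2ra, Csf2rb and Csf2rb2) and 6 encoding transcription factors (Cebpa, Cebpb, Cebpd, Cebpe, Spi1 and Gfi1), and all 10 were listed with values among the 17823 genes that had values in the table. The mice were C57BL/6, called adult in the sample labels and about a year old in the study's methods. Nar was injected into the tail vein for 30 days per the labels, and control (Ctrl) mice received phosphate-buffered saline over the same time. Messenger RNA of blood was sequenced in 2 Nar and 2 Ctrl libraries, numbered 1 and 3 in each group. Nothing in the labels says whether each library came from 1 mouse, so the p-values below measure the spread between these libraries only. Levels are FPKM, fragments per kilobase of transcript scaled to the mapped fragments of a library, so levels of different genes can be compared per length. Read depth is not known, so no counting error is given.

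Granulocyte colony-stimulating factor (G-CSF) acts through the receptor encoded by Csf3r and drives the production and release of neutrophils. Granulocyte-macrophage colony-stimulating factor (GM-CSF) binds an alpha chain, encoded by Csf2ra, which pairs with the common beta chain encoded by Csf2rb, and mice carry a second beta chain gene, Csf2rb2, whose product serves interleukin-3. PU.1, the product of Spi1, and the C/EBP factors act in sequence as granulocytes and monocytes form from progenitors in the bone marrow. C/EBP alpha acts early, C/EBP epsilon late when the secondary granules are filled, and Gfi1 is a repressor needed for neutrophil development, while C/EBP beta and C/EBP delta are induced by cytokines in mature cells as well.

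Positions are those of GENCODE M21 on GRCm38, the build named in the submitters' processing notes. Csf3r was at chr4:126024550-126044440 on the plus strand and Csf2ra at chr19:61223957-61228429 on the minus strand. Csf2rb, at chr15:78325752-78353847, and Csf2rb2, at chr15:78282507-78305721, were neighbours 20030 bases apart on opposite strands. Spi1 was at chr2:91082390-91115756 and Cebpb at chr2:167688915-167690418. The other factor genes were Cebpa (chr7:35119293-35121928), Cebpd (chr16:15887286-15891031), Cebpe (chr14:54710360-54712174) and Gfi1 (chr5:107716657-107726036). The longest coding transcripts of Cebpa, Cebpb and Cebpd had 1 exon each, against 17 for Csf3r. Exons of Cebpb overlapped those of Tmem189 on the opposite strand and exons of Cebpd those of Spidr. Exons of Cebpa overlapped those of Gm45091 and exons of Gfi1 those of A430072P03Rik, also on the opposite strand. Gm45091 and A430072P03Rik had no values. Csf2rb and Csf2rb2 each overlapped a microRNA gene on its own strand. Since no source used here states that strand was used in counting, reads of the opposite-strand pairs cannot be told apart. The beta chain genes share sequence. Of the 50-base windows of the longest Csf2rb2 transcript, 19.0% also occurred in Csf2rb, so reads can be split between this pair, while no other pair of the 10 genes shared such a window.

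RefSeq promoters (GRCm38.p6) were at hand for 6 of the 10 genes. They were searched on both strands, in a window from 250 bases before to 50 bases after the RefSeq transcription start. The letters sought were GAGGAAG (PU.1), TTNNGCAAT (C/EBP) and AAATCAC (Gfi1). GAGGAAG occurred in the promoters of all 3 receptor genes at hand and in none of the 3 factor genes, Cebpa, Cebpb and Gfi1, and 13.6% of all 32851 promoters in the table held it. TTNNGCAAT, held by 2.18% of all promoters, and AAATCAC, held by 3.20%, occurred in none of the 6. A match describes the letters and is not evidence of binding. The 250 bases before the RefSeq start of the receptor genes are shown because these are the promoters at hand that hold the letters. Matches to GAGGAAG, or CTTCCTC where the match is on the opposite strand, are in capitals:
Csf3r, chr4:126024409-126024658, plus strand: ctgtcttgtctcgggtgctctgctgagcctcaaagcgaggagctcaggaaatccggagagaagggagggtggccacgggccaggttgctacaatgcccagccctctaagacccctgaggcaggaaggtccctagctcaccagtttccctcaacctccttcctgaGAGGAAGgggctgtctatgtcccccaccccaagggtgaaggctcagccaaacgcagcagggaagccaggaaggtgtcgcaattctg
Csf2ra, chr19:61228419-61228668, minus strand: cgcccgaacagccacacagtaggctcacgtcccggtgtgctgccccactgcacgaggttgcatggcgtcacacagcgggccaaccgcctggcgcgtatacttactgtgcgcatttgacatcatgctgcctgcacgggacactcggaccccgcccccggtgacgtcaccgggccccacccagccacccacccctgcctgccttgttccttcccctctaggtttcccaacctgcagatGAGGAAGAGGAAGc
Csf2rb2, chr15:78305722-78305971, minus strand: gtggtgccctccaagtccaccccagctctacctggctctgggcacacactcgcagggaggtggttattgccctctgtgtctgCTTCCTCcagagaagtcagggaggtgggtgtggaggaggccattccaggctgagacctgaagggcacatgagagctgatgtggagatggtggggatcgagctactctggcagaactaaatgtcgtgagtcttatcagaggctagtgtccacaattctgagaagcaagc
The GENCODE starts of Csf3r (126024550) and Csf2ra (61228429, minus strand) lie inside the stretches shown, so the RefSeq and GENCODE starts of these genes differ. The Csf3r match and the Csf2ra match nearest the RefSeq start lie within the GENCODE genes. Counted from the RefSeq transcription start, the match of Csf3r ran from -86 to -80. In Csf2ra 2 matches, from -14 to -8 and from -8 to -2, overlapped by a base. In Csf2rb2 the match ran from -168 to -162 on the opposite strand, and another lay from 28 to 34 after the start.

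Haemoglobin genes made up between 92.6% and 96.4% of the summed FPKM of the 4 libraries, and all other genes share the remainder. The typical gene was lower with Nar, with a median log2 fold change of -1.07 over the 5339 genes whose mean FPKM was at least 0.5. Across the tested genes, Pearson's r of log2(FPKM + 0.1) was 0.923 between Ctrl 1 and Ctrl 3, and 0.957 between the Nar libraries. Ctrl 3 gave 0.927 and 0.923 with Nar 1 and Nar 3, while Ctrl 1 gave lower values of 0.89 and 0.90. By this measure Ctrl 3 was no nearer to Ctrl 1 than to the Nar libraries, while Ctrl 1 was nearer to Ctrl 3 than to them. Changes below are on the deposited scale unless another is named. Those of the set are given again after median-of-ratios scaling, in which the typical gene does not change, and other named pathway genes are given on that scale where their direction or call differs there. Differences were computed on that log2 scale, where the pseudocount shrinks the changes of low genes, and tested with limma over all 5339 genes with Benjamini-Hochberg adjustment. With 2 libraries against 2, the smallest two-sided p that an exact permutation test of 1 value can give is 0.333.

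To ask whether myeloid growth factor receptors differed with Nar, the levels of the 4 receptor genes were compared. All 4 were lower in both Nar libraries than in both Ctrl libraries, as were 78.3% of all tested genes. Csf3r, the receptor of G-CSF, had 37.1 (Ctrl 1) and 22.9 FPKM (Ctrl 3) without Nar, beside 2.49 (Nar 1) and 3.20 (Nar 3). It was the most abundant of the 10 genes in every library, and the lowest control was far above the highest Nar value. The mean was 30.0 ± 10.0 FPKM (SD, n = 2) in Ctrl and 2.84 ± 0.502 (SD, n = 2) with Nar, or 9.49% of the Ctrl mean. On the log2 scale it fell by 3.32 (standard error 0.497, limma adjusted p = 0.00510), the 50th lowest value of the 5339 genes tested.

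Csf2ra, the alpha chain of the GM-CSF receptor, had 9.94 and 5.00 FPKM in Ctrl 1 and 3 and 1.01 and 0.83 in Nar 1 and 3. The controls were further apart from each other in FPKM than Ctrl 3 was from either Nar library, but the groups did not overlap. The log2 fold change was -2.82 (standard error 0.453, limma adjusted p = 0.00586).

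Csf2rb, the common beta chain, had 6.01 and 3.75 FPKM in Ctrl 1 and 3 and 0.76 and 1.03 in Nar 1 and 3. The alpha and beta chains were thus at similar levels in blood, with overlapping ranges within each group. The log2 fold change of Csf2rb was -2.30 (standard error 0.411, limma adjusted p = 0.00856).

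Csf2rb2, the interleukin-3 beta chain, was the rarest of the receptor genes, at 1.64 and 0.96 FPKM in Ctrl 1 and 3 and 0.15 and 0.33 in Nar 1 and 3. Its log2 fold change was -2.05 (standard error 0.45, limma adjusted p = 0.0161). The level of Csf2rb2 relative to Csf2rb within a library was 0.273 and 0.256 in Ctrl and 0.197 and 0.32 with Nar, so these FPKM ratios overlapped between groups, although with the pseudocount of 0.1 added they did not. Because part of their sequence is shared, the split between Csf2rb and Csf2rb2 is uncertain.

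Among the lineage factors, Spi1 and Cebpb were abundant, Cebpa and Cebpd low, and Cebpe and Gfi1 close to 0. Spi1, the gene of PU.1, had 18.9 and 16.2 FPKM in Ctrl 1 and 3 and 2.28 and 2.63 in Nar 1 and 3. It varied least between the control libraries in relation to its level among the abundant genes. The mean was 17.5 ± 1.87 FPKM (SD, n = 2) in Ctrl and 2.46 ± 0.247 (SD, n = 2) with Nar. The fitted difference was -2.79 on the log2 scale (standard error 0.451, limma adjusted p = 0.00609).

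Cebpb, a cytokine-induced factor, had 17.0 and 12.3 FPKM in Ctrl 1 and 3 and 1.67 and 2.21 in Nar 1 and 3, with a log2 difference of -2.85 (standard error 0.456, limma adjusted p = 0.00582). Its level followed that of Spi1 closely. The FPKM ratio of Cebpb to Spi1 was 0.90 and 0.761 in Ctrl and 0.733 and 0.84 with Nar, with overlapping groups. Tmem189, whose exons overlap Cebpb, was listed at 2.96 and 7.74 FPKM in Ctrl and at 2.12 and 2.14 with Nar, and did not pass the test (log2 fold change -1.14, limma adjusted p = 0.0927).

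Cebpd, another inducible factor, had 1.71 and 1.97 FPKM in Ctrl 1 and 3 and 0.08 and 0.25 in Nar 1 and 3. The Ctrl values were close together, and both Nar values were under the mean of 0.5 FPKM that the test required. Its log2 difference of -2.95 (standard error 0.433, limma adjusted p = 0.00488) was the steepest among the factors, but with a pseudocount of 1 it was -1.29, beside -2.42 for Spi1 and -2.40 for Cebpb. Spidr, whose exons overlap Cebpd, was listed at 0.37 and 0.13 FPKM in Ctrl and at 0.02 and 0.03 with Nar, and was under the filter. Cebpa, the early factor, had 1.18 and 1.54 FPKM in Ctrl and 0.35 and 0.32 with Nar. It had the smallest change of the tested members, a log2 difference of -1.74 (standard error 0.361, limma adjusted p = 0.0141).

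Cebpe, the late granulocyte factor, was listed at 0.25 and 0.18 FPKM in Ctrl and at 0 in both Nar libraries, so no fold is given. Gfi1 was listed at 0.20 and 0.11 FPKM in Ctrl and at 0.070 and 0.0300 with Nar, a few steps of the rounding to 2 decimals. Both genes were under the mean of 0.5 FPKM needed for the test. For each, the Nar libraries lay below the Ctrl libraries, with an exact permutation two-sided p of 0.333, the smallest that 2 against 2 allows.

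**Figure D1:**
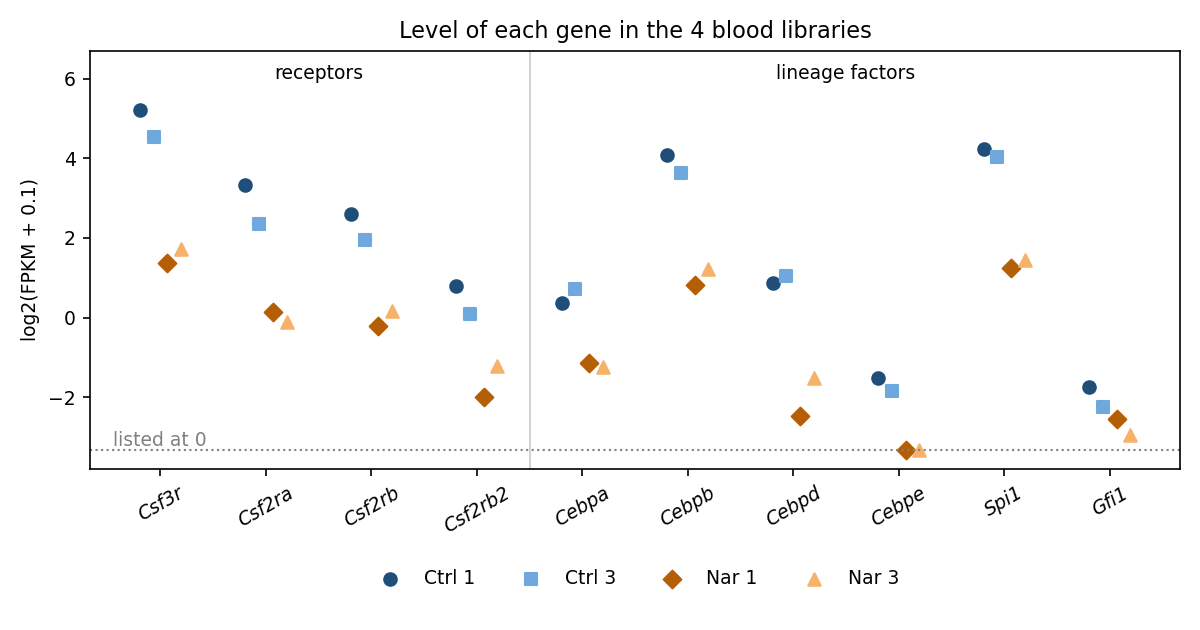
Level of each of the 10 genes in the 4 libraries as log2(FPKM + 0.1), 1 point per library, with circles and squares for Ctrl 1 and 3 and diamonds and triangles for Nar 1 and 3; the dotted line marks a gene listed at 0. For every gene both Nar points lie below both Ctrl points, and Cebpe lies on the dotted line in both Nar libraries.

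Over the whole set, the Nar libraries lay below the Ctrl libraries for 10 of 10 genes. The same held for 52.7% of all 16382 genes with a value above 0 and for 78.3% of the 5339 tested genes, to which 8 of the 10 belong. In limma 8 of 8 tested genes had an adjusted p-value under 0.05 and were lower, against 39.6% of all genes tested. Of these 8, Csf2rb2, Cebpa and Cebpd reached the mean of 0.5 FPKM only through the Ctrl libraries and therefore had to differ, and the other 5 reached it in both groups. The median log2 fold change was -2.80 for the 8 tested genes beside -1.07 for all tested genes, and 6 of the 8 lay among the lowest 5% of log2 fold changes of all tested genes. Csf2rb2 and Cebpa were the exceptions. With each of the 4 libraries left out in turn, few or none of the 8 passed in limma. A group then rests on 1 library, so no counts are given. Every log2 fold change of the 10 genes stayed below 0 in these 4 comparisons.

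In bulk blood, fewer cells of a type and less RNA per cell cannot be told apart. In Ctrl 1, 8 of the 10 genes were higher than in Ctrl 3, the exceptions being Cebpa and Cebpd. In Nar 3, 6 were higher than in Nar 1, 3 were lower and Cebpe was listed at 0 in both. The 4 receptor genes summed to 54.7 and 32.6 FPKM in Ctrl 1 and 3 and to 4.41 and 5.39 in Nar 1 and 3, and the 6 factor genes to 39.2 and 32.4 in Ctrl and 4.45 and 5.44 with Nar.

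The order of the levels was nearly kept between the groups. In Ctrl it ran from Csf3r over Spi1, Cebpb, Csf2ra, Csf2rb, Cebpd, Cebpa, Csf2rb2 and Cebpe to Gfi1. Neighbours whose Ctrl values overlapped were Spi1 with Cebpb, Csf2ra with Csf2rb, Cebpa with Csf2rb2, and Cebpe with Gfi1. With Nar the first 5 places were the same, Cebpd moved from place 6 to place 8, and Cebpe took the last place from Gfi1. There Csf3r overlapped with Spi1, Csf2ra with Csf2rb, Cebpa with Csf2rb2, and Csf2rb2 with Cebpd.

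To compare the genes without the scale of a library, 12 ratios were formed within each library on log2(FPKM + 0.1). Csf3r lay above Spi1 by 0.97 and 0.49 in Ctrl and by 0.12 and 0.27 with Nar, a difference of -0.53 between the groups. Csf3r also lay above Csf1r, the receptor of the monocyte growth factor CSF1, by 2.51 and 3.16 in Ctrl and by 0.23 and 1.63 with Nar, a difference of -1.91. The granulocyte receptor thus made up less of the pair in both Nar libraries, and the Nar values were 1.40 apart from each other. Against Ptprc, the gene of the leukocyte antigen CD45, Csf3r stood at 1.03 and 1.29 in Ctrl and at -0.92 and 0.35 with Nar, a difference of -1.45. For Spi1 against Ptprc the groups overlapped, with 0.06 and 0.80 in Ctrl and -1.05 and 0.08 with Nar. These differences moved by more than 1.5 times when a library was left out. Csf3r to Spi1 was -0.30 without Ctrl 1, Csf3r to Csf1r was -1.21 without Nar 1, and Csf3r to Ptprc was -0.81 without Nar 1. The 3 ratios with Cebpe or Gfi1 rest on the pseudocount and are not interpreted. Of the other 9, 5 did not overlap between groups either with the pseudocount or as plain FPKM ratios, namely Csf2ra to Csf2rb, Cebpb to Ptprc and the 3 with Csf3r. Each had an exact permutation two-sided p of 0.333 (adjusted over the 12 ratios, 0.444), so none passed.

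The other genes of the pathway were taken from lists of ligands, receptors, signalling genes, lineage factors and granule genes. Of 61 such genes, 41 could be tested, 22 passed at an adjusted p under 0.05 and all 22 were lower, beside 39.6% of all genes tested. Of the 22, 6 reached the mean of 0.5 FPKM only through the Ctrl libraries and had to differ, among them Flt3l, Nfil3, Ltf and Camp. After median-of-ratios scaling 7 passed, all lower, beside 0.599% over all tested, and with haemoglobin genes removed 9 did, beside 5.01%.

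The growth factors themselves were near the limit of the table. Csf3, Il3 and Il5 had no values, and Csf2, the gene of GM-CSF, was listed at 0.050 and 0 FPKM in Ctrl and the same with Nar. Kitl did not exceed 0.020 FPKM in any library. Il34 had 0.12 and 0.55 FPKM in Ctrl and 0.080 and 0.13 with Nar, and the groups overlapped. Csf1, the monocyte growth factor, had 0.90 and 0.64 FPKM in Ctrl and 0.18 and 0.17 with Nar, under the filter. Flt3l, which supports dendritic cells, was the 1 ligand tested and was lower, with 1.48 and 1.10 FPKM in Ctrl and 0.58 and 0.35 with Nar (log2 fold change -1.32, limma adjusted p = 0.0306), a change close to that of the typical gene. It was tested only through its Ctrl values, and after median-of-ratios scaling it stood at -0.29 and did not pass (limma adjusted p = 0.879).

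Of the 9 other growth factor receptors, 4 were tested. In limma 0 passed at an adjusted p under 0.05, while 39.6% of all tested genes were called lower. Csf1r had 6.42 and 2.47 FPKM in Ctrl and 2.11 and 0.97 with Nar, with a log2 fold change of -1.41 (adjusted p = 0.0654). Il6ra had a log2 fold change of -1.40 (adjusted p = 0.0573). Epor, the erythropoietin receptor, had a log2 fold change of -1.23 (adjusted p = 0.0962). An unadjusted p under 0.05 was reached by 2 of these 4, Csf1r and Il6ra. Il3ra, the interleukin-3 alpha chain, had 0.68 and 0.54 FPKM in Ctrl and 0.13 and 0.12 with Nar, and with Kit (0.25 and 0.14 against 0.050 in both) and Il6st it was lower in both Nar libraries without being tested. Il5ra and Flt3 did not exceed 0.26 FPKM in any library and overlapped between groups.

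Below the receptors, 8 of 16 tested signalling genes were lower at an adjusted p under 0.05 and 0 were higher, beside 39.6% of all tested genes called lower. After median-of-ratios scaling 1 of the 16 was called lower (0.599% over all tested), and with neutrophil markers set level 8 were called higher (76.7% over all tested). Socs3, the feedback inhibitor of G-CSF signalling, was the lowest, with 8.37 and 9.15 FPKM in Ctrl and 0.90 and 0.86 with Nar (log2 fold change -3.18, limma adjusted p = 0.00385), and it was the gene still called after median-of-ratios scaling (-2.06). Pim1, a kinase gene induced by these receptors, changed least, with 15.4 and 16.2 FPKM in Ctrl and 9.22 and 7.49 with Nar (log2 fold change -0.92, adjusted p = 0.128), and its sign turned after median-of-ratios scaling (0.25). Among other lineage factors, 8 of 15 tested genes were lower and 0 higher, again beside 39.6% over all tested. Once scaled by median of ratios, 1 of the 15 was called lower, and with neutrophil markers set level 10 were called higher, beside the same 0.599% and 76.7%. Nfil3 was the lowest of them (4.15 and 4.39 FPKM in Ctrl, 0.26 and 0.40 with Nar, log2 fold change -3.36, limma adjusted p = 0.00246) and Cebpg, a C/EBP family member without an activation domain, the highest (log2 fold change -0.77, adjusted p = 0.141, and 0.19 after median-of-ratios scaling). Nfil3, tested only through its Ctrl values, was the gene still called after that scaling (-2.32).

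Granule genes encode the proteins packed into neutrophil granules in the marrow, and those of the secondary granules are known targets of C/EBP epsilon. All 5 secondary granule genes were called lower on the deposited scale (39.6% over all tested) and after median-of-ratios scaling (0.599%), and 3 of the 5 with neutrophil markers set level (0.356%). Ltf and Camp were tested only through their Ctrl values. Ngp had 82.5 and 73.7 FPKM in Ctrl and 2.83 and 4.03 with Nar (log2 fold change -4.49, limma adjusted p = 0.00247), and Camp, Ltf and Mmp8 had log2 fold changes of -4.36, -4.17 and -4.04. Lcn2, at 99.4 and 75.2 FPKM in Ctrl and 5.49 and 7.03 with Nar, had the smallest change of the 5, -3.78. The primary granule genes Mpo, Elane, Prtn3 and Ctsg, which are made in marrow progenitors, did not exceed 0.73 FPKM in any library and were not tested.

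**Figure D2:**
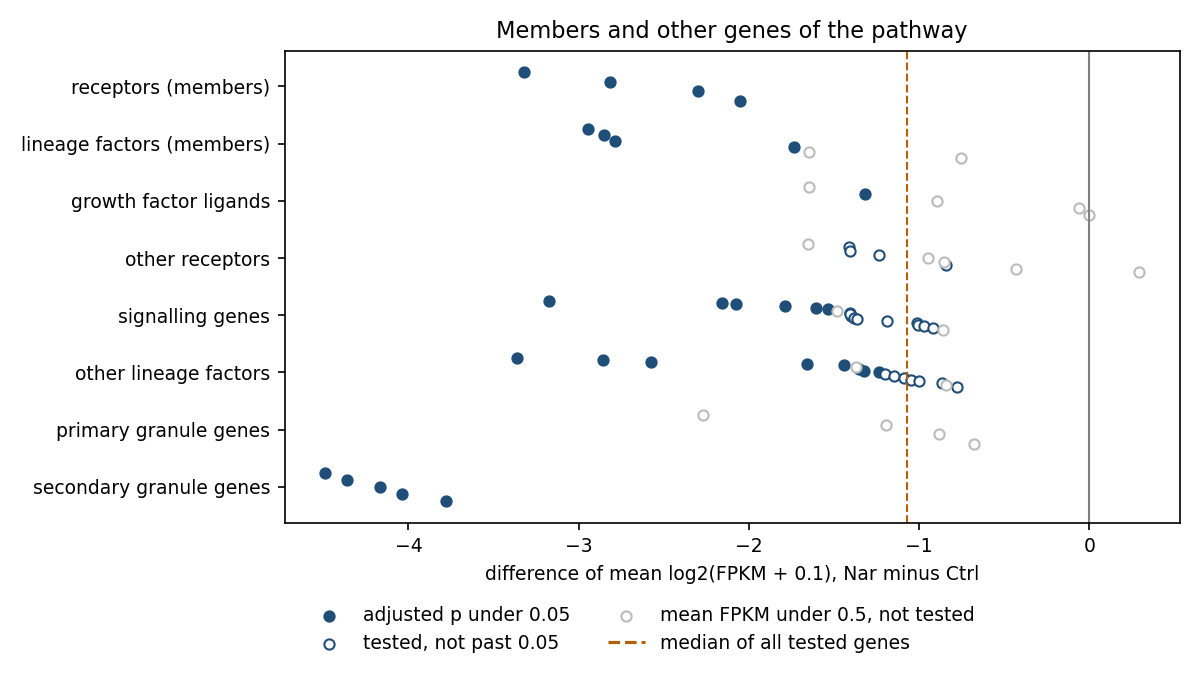
Difference of mean log2(FPKM + 0.1), Nar minus Ctrl, for each gene of the set and of the pathway lists, 1 point per gene; filled points passed limma's adjusted p of 0.05, open blue points did not, grey points were under the filter, and the dashed line is the median of all tested genes at -1.07. The 8 tested receptor and factor genes of the set lie left of the dashed line, between -3.32 and -1.74, and the secondary granule genes lie furthest left.

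Scaling decided how far the set stood from 0. After median-of-ratios scaling all 8 tested genes were still lower with Nar, with log2 fold changes from -2.17 (Csf3r) to -0.73 (Cebpa) and a median of -1.67. None of them then passed limma's adjusted p of 0.05 (the values ran from 0.0708 to 0.417), 6 had an unadjusted p under 0.05, and 0.599% of all tested genes were called lower. When haemoglobin genes were taken out before rescaling, 6 of the 8 were called lower, against 5.01% of all tested genes, and Csf2rb2 and Cebpa were not (adjusted p = 0.135 and 0.149).

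Markers of neutrophils moved with the set. All 10 neutrophil marker genes, such as S100a8, S100a9, Cxcr2 and Retnlg, lay lower in both Nar libraries than in both Ctrl libraries. The same held for 78.3% of all tested genes. All 10 were also called lower in limma, beside 39.6% of all tested genes. The median log2 fold change of the markers was -3.27, beside -1.07 for all tested genes, and Clec4d changed least (-1.695). With median-of-ratios scaling 1 of the 10 was called lower, beside 0.599% of all tested genes, and the markers stood at a median of -2.13. Their deposited levels summed to 1503 and 1250 FPKM in Ctrl 1 and 3 and to 96.0 and 153 in Nar 1 and 3. The libraries were therefore also scaled so that the median level of these markers, none of them in the set, was the same in each. This does not set their changes to 0, and the median log2 fold change of the 10 markers on that scale was -0.43. On that scale none of the 8 tested genes was called in either direction in limma, 0 had an unadjusted p under 0.05, and their median log2 fold change was 0.030, beside 1.58 for all tested genes. By comparison 77.1% of all tested genes were called, 4096 higher and 19 lower. Cebpb stood at -0.01 (95% confidence interval -1.15 to 1.13), Csf2ra at -0.04 (-1.14 to 1.06) and Spi1 at 0.068 (-1.09 to 1.23). Csf3r stood at -0.46 (-1.70 to 0.78) and Cebpd at -0.63 (-1.75 to 0.49), while Cebpa stood highest at 0.77 (-0.13 to 1.68). With intervals this wide, the values do not show that the genes and the markers changed alike.

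**Figure D3:**
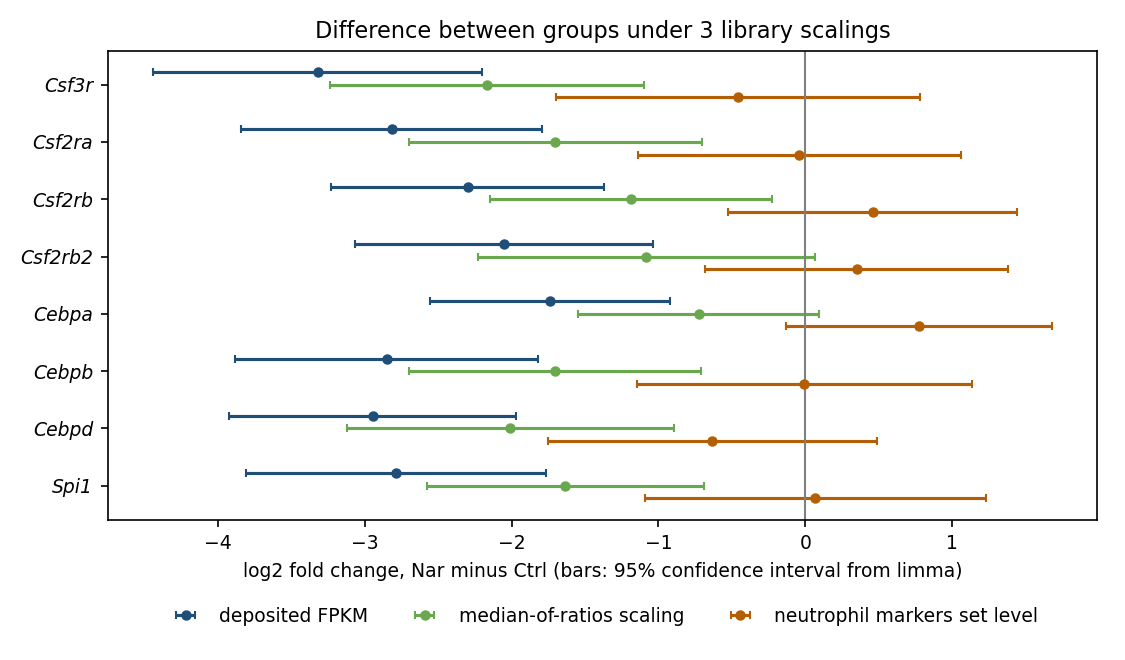
log2 fold change (Nar minus Ctrl) of the 8 tested genes with its 95% confidence interval from limma, on the deposited FPKM (blue), after median-of-ratios scaling (green) and with the neutrophil markers set level (orange). The points move from between -3.32 and -1.74 on the deposited scale to between -0.63 and 0.77 with the neutrophil markers level, where every interval includes 0.

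Other cell types moved less than neutrophil markers on the deposited scale. Both Nar libraries lay below both Ctrl libraries for 6 of 8 monocyte markers, and 3 of the 8 were called lower, shares near those of all tested genes (78.3% and 39.6%), with a median of -1.45. Their sum, which is mostly Lyz2 (a gene that neutrophils also express), was 342 and 428 FPKM in Ctrl and 157 and 103 with Nar. The 5 tested B cell markers had a median of -0.34, with 0 called in limma and 0 at an unadjusted p under 0.05. The 5 tested T cell markers had a median of -0.47, with 0 called in limma and 1 at an unadjusted p under 0.05. After median-of-ratios scaling these medians turned to 0.82 and 0.55. Of the 5 NK cell markers 1 passed, with a median of -1.30. Platelet markers had a median of -1.21 with 0 of 6 called in limma (1 at an unadjusted p under 0.05), and their sum of 2062 FPKM in Ctrl 3 stood apart from 643 in Ctrl 1, 549 in Nar 1 and 419 in Nar 3. The 7 erythroid markers with values had a median of 0.37, with 0 called in limma and 0 at an unadjusted p under 0.05, and overlapped between groups in 6 of 7 genes. Progenitor markers (Cd34, Kit, Flt3, Mpo and Elane) summed to between 0.25 and 1.09 FPKM, and all 5 were under the filter. The part of these cell types in the lower levels of the set was not tested, and the scaling to neutrophil markers is not such a test.

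**Figure D4:**
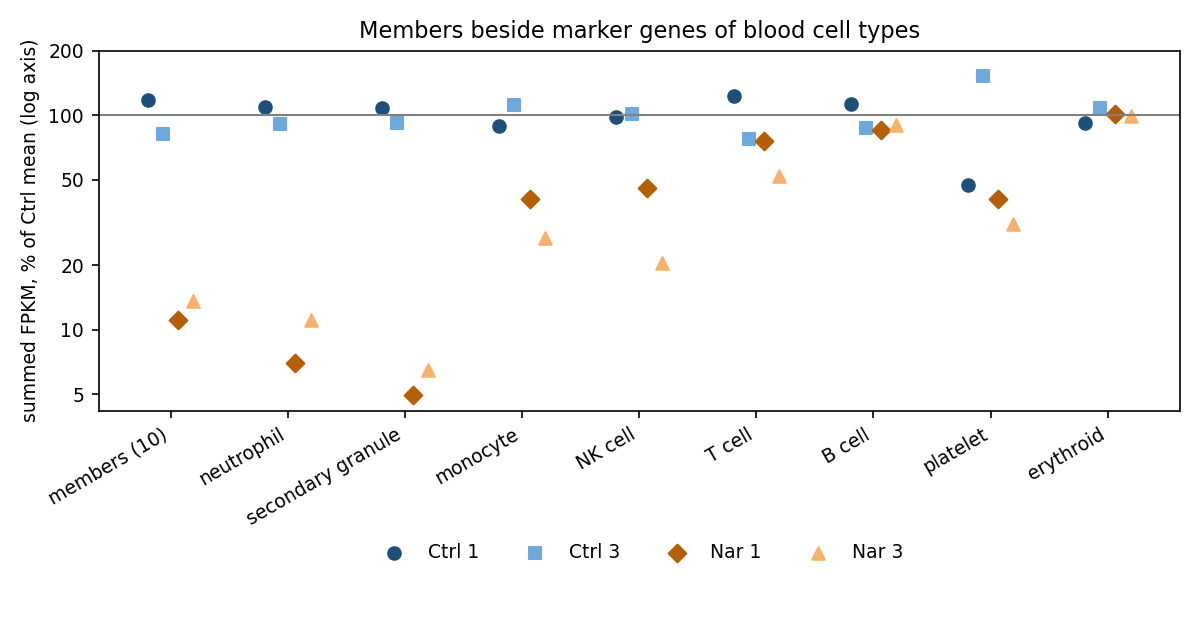
Summed FPKM of the 10 genes and of marker genes of blood cell types in each library, as percent of the mean of the Ctrl libraries on a log axis, 1 point per library. The set lies at 11.2% and 13.6% of Ctrl in the Nar libraries, neutrophil markers at 6.98% and 11.1% and secondary granule genes at 4.98% and 6.51%, while monocyte markers lie at 40.8% and 26.7% and B cell markers at 85.2% and 90.2%.

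The tested genes whose pattern over the 4 libraries was most like the mean of the 8 tested members were Ltbr, Pla2g7, Mxd1, Cpd and Msrb1. Their centred log2 levels differed from that mean by 0.06 to 0.09 (root mean square over 4 libraries). Pla2g7, for example, had 15.8 and 10.8 FPKM in Ctrl 1 and 3 and 1.74 and 2.24 in Nar 1 and 3. Spi1 was the member nearest to the mean (0.12), followed by Cebpb (0.13), and Cebpa was the farthest (0.53). Of the 5331 other tested genes, 12 lay nearer to the mean than Spi1 and 521 nearer than Cebpa.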

How the data were processed

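Blood RNA-seq libraries, 2 from Nar-treated and 2 from control mice, were grouped by their sample titles. Per the study's methods, filtered reads were mapped with bowtie-2 against reference genes, while the submitters' processing notes name TopHat2, Cufflinks and GRCm38 without roles. The authors deposited FPKM per gene with 2 decimals, and depth is unknown. Of 23136 genes listed, 5313 blank in all libraries were left out. Every column was matched to 1 library, and 0 were left over.

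The methods' DEGseq test needs read numbers, so log2(FPKM + 0.1) was fitted, over the 5339 genes whose mean FPKM reached 0.5, with limma 3.58.1 (trend) in R 4.3.3, Benjamini-Hochberg adjusted over all tested genes, after testing the steps on simulated data. Single values were compared by exact permutation (scipy 1.17.1). The members and lists were chosen with earlier results of these data known. Named genes were the members, each ligand, receptor and granule gene listed, the lowest and highest tested gene of each other list, Ptprc, and the 5 genes nearest in pattern. Other marker genes, Tmem189 and Spidr were named after their values were seen. A gene of the receptor list is counted but not reported here. Positions came from GENCODE M21, promoters from RefSeq, and plots were drawn with matplotlib 3.10.9.

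The alternatives tried were other pseudocounts (1 and 0.01), other filters (none, and a mean of 5 FPKM), rescaling to TPM, removal of haemoglobin genes, median-of-ratios scaling, scaling to neutrophil markers, limma without the trend, a replicate block and each library left out. The groups share the numbers 1 and 3 in the labels, and whether same-numbered libraries were paired is not known.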

Additional observations from a re-analysis of the deposited data

How the results depend on the processing

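Of the 8 members called lower, 8 also passed with a pseudocount of 1 or 0.01, TPM, no trend and the replicate block, and 6 with haemoglobin genes removed. Calls fell to 0 of 10 without the filter, where 9 had an unadjusted p under 0.05, and to 3 of 3 tested with a mean of at least 5 FPKM. A filter changes the number of genes tested and also the variance trend that limma fits, and these were not separated. Calls also fell to 0 with median-of-ratios scaling and to 0 with neutrophil markers level. They were few or none when a library was left out, where the lone library is assumed to vary like the others. The 22 pathway calls became 0 without the filter and 5 of 13 tested at a mean of at least 5 FPKM. They became 9 with haemoglobin genes removed, 7 with median-of-ratios scaling and 23 (3 lower and 20 higher) with neutrophil markers level. With any library left out they were fewer. The members' median of -2.80 moved to -1.84 with a pseudocount of 1, -2.26 with haemoglobin genes removed and -1.67 with median-of-ratios scaling, and was -2.87 to -2.47 with a library left out. With neutrophil markers level, where the median of all tested genes moved from -1.07 to 1.58 and that of the markers to -0.43, it was 0.030, and values above 0 were also given by Csf2rb (0.46), Csf2rb2 (0.35), Cebpa (0.77), Spi1 (0.068) and Gfi1 (0.58). None of these was called, and the limma intervals of the 4 tested genes among them include 0. The causes of these shifts were not tested.

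Deviations of same-numbered libraries from their group means correlated weakly (-0.153 across 5339 genes). With 2 libraries per group, this correlation cannot settle whether same-numbered libraries were paired. The replicate block gave 8 member and 21 pathway calls. The crossed pairing, chosen after seeing the data, gave 8 and 36. Depth is unknown, which limits Cebpe, Gfi1 and the ligands.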

Other observations

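Basophils and eosinophils also use the common beta chain encoded by Csf2rb. The 5 basophil markers (Mcpt8, Cpa3, Fcer1a, Ms4a2 and Prss34) summed to 3.33 FPKM in Ctrl 1 and 2.16 in Nar 3 but to 0.43 in Ctrl 3 and 0.32 in Nar 1, so the libraries split across the groups. Mcpt8, a basophil protease gene, was listed at 1.48 and 1.20 FPKM in Ctrl 1 and Nar 3 and at 0.050 and 0.16 in Ctrl 3 and Nar 1. The 5 eosinophil markers summed to between 0.16 and 0.50 FPKM, with Epx listed at 0 in 3 of the 4 libraries.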
